A study of Mus musculus with 3 samples.

Results

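The transcripts of 10 genes, S100a4, S100a6, S100a10, S100a11, S100a13, Anxa1, Anxa2, Lgals1, Lgals3 and Crip1, were followed in mouse T cells. They were chosen by name, with earlier results of these data known, as S100, annexin, galectin and CRIP genes linked to T cell memory. All 10 were found by symbol among the 50600 genes of the deposited tables. The material was 3 libraries of primary T cells from the C57BL/6NJ strain, which form 1 group and carry the biological replicate numbers 2, 3 and 4. The assay is called total RNA-seq, while a linked protocol names polyA+ libraries. The labels add a CD4+ T cell differentiation protocol, a single donor identifier for all libraries and neither sex nor age, and the file headers name the alignments Th0, activated and 0 h. The labels do not say whether the libraries came from separate animals, so p-values measure only the spread between these samples.

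Library totals ran from 28340521 to 59698913 counts of read pairs. Levels are given in TPM, counts divided by exon length and scaled to a fixed total, as mean ± SD over the 3 libraries, and a gene was called detected at 1 TPM or more in every library. All 13 T cell identity genes were detected, with Cd4 at 1044 ± 24.6 TPM against 0.534 ± 0.182 TPM for Cd8a, while the other CD8 gene, Cd8b1, stood at 33.6 ± 3.00 TPM. Replicate 2 had the pattern of female cells and replicates 3 and 4 that of male cells. Xist, transcribed from the inactive X chromosome, was at 151, 0.221 and 0.399 TPM, and the Y-linked Ddx3y at 0.248, 79.96 and 72.3 TPM. Eif2s3y, Kdm5d and Uty, also Y-linked, were each below 1 TPM in replicate 2 and above 1 TPM in the other two. Replicate 2 thus came from another animal or animals than replicates 3 and 4, despite the shared donor identifier, and whether replicates 3 and 4 came from separate animals is not given.

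S100 proteins are small calcium-binding proteins with paired EF hands that act inside cells on cytoskeletal and membrane partners, and some are also secreted. Annexins bind negatively charged membranes in the presence of calcium, and several carry an S100 dimer as a partner, such as S100A10 on annexin A2 and S100A11 on annexin A1. Galectins are lectins for β-galactoside sugars of surface glycoproteins, and CRIP1 is a small LIM domain protein. In CD4 and CD8 T cells transcripts of several of these genes are known to be more abundant in effector and memory cells than in naive cells.

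The widest step among the 10 genes lay between 5 abundant ones and Anxa2. S100a10, Crip1, Lgals1, S100a13 and S100a11 stood between 84.2 and 215 TPM, Anxa2 was at 3.52 ± 0.496 TPM, and S100a6, Lgals3, Anxa1 and S100a4 had means below 1 TPM. Thus 6 of 10 were detected, beside 23.4% of all genes and 46.1% of protein-coding genes. The median of the 10 means, 43.8 TPM, fell in the gap between S100a11 and Anxa2, so no gene lay near it. Of the 10 genes, which include 4 that were not detected, 5 exceeded 33.4 TPM, the median of detected protein-coding genes. The value of S100a4 is a lower bound, for a reason of counting given with its counts. In these bulk libraries fewer cells of a type and less RNA per cell cannot be told apart. Added together, the 10 genes made up 0.0221%, 0.0258% and 0.0258% of all counts in replicates 2, 3 and 4.

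**Figure D1:**
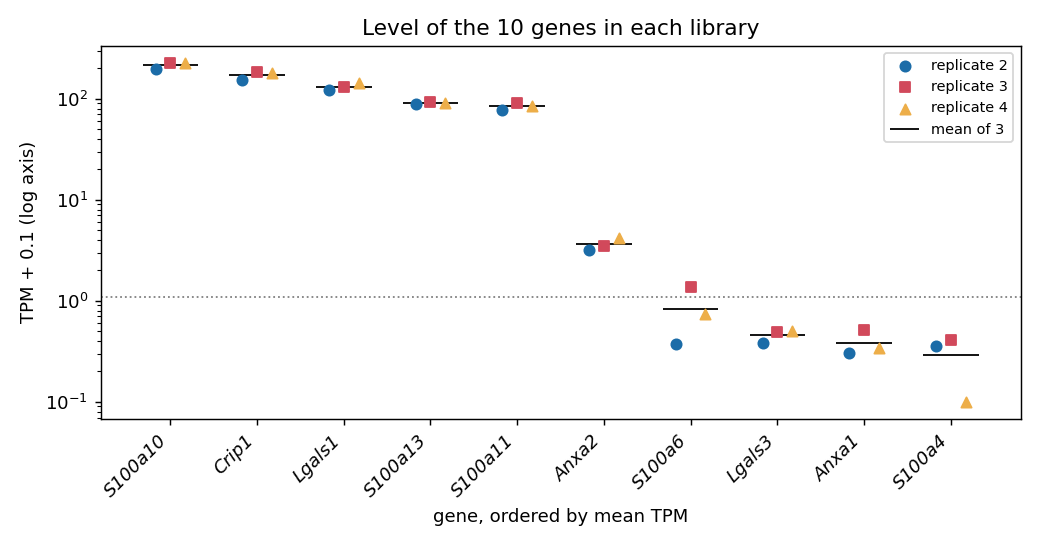
Each point is 1 library, the bars are means of the 3 libraries, and the vertical axis is TPM + 0.1 on a log scale with a dotted line at 1 TPM. S100a10, Crip1, Lgals1, S100a13 and S100a11 lie at 84.2 TPM or above, Anxa2 lies at 3.52 TPM, and the means of S100a6, Lgals3, Anxa1 and S100a4 are below the line.

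To show what lies upstream of abundant and of low genes, the 250 bases before the RefSeq start (build GRCm38.p6, the build of mm10) are printed for S100a4 and S100a6, whose means were below 1 TPM, and for S100a11 and Crip1, which were abundant. The S100a4 value is a lower bound, so its place among the low genes is not settled. RefSeq windows were matched for 8 of the 10 genes, with none for S100a10 and Lgals1. Capitals mark every match on either strand to TATAAA, the TATA box, GGGCGG, the GC box bound by SP1, and TGANTCA, the AP-1 site. The S100a4 window is chr3:90603520-90603769 on the plus strand, the S100a6 window chr3:90612644-90612893 on the plus strand, the S100a11 window chr3:93520246-93520495 on the plus strand and the Crip1 window chr12:113151762-113152011 on the plus strand.
S100a4: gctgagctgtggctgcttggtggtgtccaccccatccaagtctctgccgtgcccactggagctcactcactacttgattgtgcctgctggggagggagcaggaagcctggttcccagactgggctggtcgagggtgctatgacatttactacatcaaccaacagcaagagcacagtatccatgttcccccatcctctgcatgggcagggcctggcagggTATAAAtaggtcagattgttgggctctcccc
S100a6: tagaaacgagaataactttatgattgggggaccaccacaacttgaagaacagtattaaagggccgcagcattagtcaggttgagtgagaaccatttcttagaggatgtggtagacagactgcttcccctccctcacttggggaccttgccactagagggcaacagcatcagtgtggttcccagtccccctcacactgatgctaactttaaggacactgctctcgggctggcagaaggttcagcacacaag
S100a11: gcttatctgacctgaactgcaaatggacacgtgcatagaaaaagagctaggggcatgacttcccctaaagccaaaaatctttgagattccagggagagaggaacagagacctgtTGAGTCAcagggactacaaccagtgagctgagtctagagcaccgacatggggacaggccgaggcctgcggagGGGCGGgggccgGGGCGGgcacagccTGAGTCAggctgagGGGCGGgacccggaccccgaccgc
Crip1: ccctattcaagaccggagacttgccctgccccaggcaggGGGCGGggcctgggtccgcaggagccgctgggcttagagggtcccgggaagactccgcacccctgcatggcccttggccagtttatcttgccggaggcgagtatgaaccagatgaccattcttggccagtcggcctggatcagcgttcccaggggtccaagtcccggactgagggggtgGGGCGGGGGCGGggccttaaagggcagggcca

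S100a4 held 1 TATAAA, which began 31 bases before the start, and S100a6 held none of the 3 motifs. The unprinted Anxa1 window, all of it exon in the counting annotation, also held 1 TATAAA, 32 bases before the start. S100a11 held 3 GGGCGG and 2 TGANTCA, and Crip1 held 3 GGGCGG. The same letters were found in 12.4% of 32851 promoter windows of this length for TATAAA, in 32.7% for GGGCGG and in 6.75% for TGANTCA, and in the 8 windows no match overlapped another motif. CG dinucleotides, whose median over all windows was 6, numbered 2 in S100a4, 3 in S100a6, 2 in Anxa1, 11 in S100a11 and 13 in Crip1. The remaining windows did not follow one rule, since Lgals3, a low gene, had 13 CG with 1 GGGCGG. Anxa2 had 9 CG with 1 TATAAA, 3 GGGCGG and 1 TGANTCA. S100a13, an abundant gene, had 13 CG and none of the 3 motifs. The Crip1 window lies inside the span of the counting model but holds none of its exon bases. On the same strand, 12 bases of the S100a6 window, 8 of S100a11, 63 of Anxa2 and 47 of Lgals3 were exon bases of the counting annotation. In the S100a13 window 192 bases were exon bases on the other strand. These matches describe letters only and were not tied to the levels by any test.

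Among the S100 genes, S100a10 was the most abundant. It encodes p11, an S100 protein that no longer binds calcium and that pairs with annexin A2, and it lies on chromosome 3 from 93555080 to 93564643 (ENSMUSG00000041959.14). Its levels in replicates 2, 3 and 4 were 195, 226 and 224 TPM, from 9847 counts in all. Replicate 2 was the lowest library, and the mean of 215 ± 17.2 TPM (SD, n = 3) exceeded that of 92.6% of detected protein-coding genes.

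S100a13, whose product takes part in the release of FGF1 and interleukin 1α without a signal peptide, was the steadiest of the 10. It measured 87.8, 93.1 and 91.0 TPM in replicates 2, 3 and 4, a coefficient of variation of 2.92%. S100a11, the partner of annexin A1 in membrane binding (ENSMUSG00000027907.4, chromosome 3, 93520488 to 93526287), measured 77.4, 90.9 and 84.2 TPM. The S100a11 mean of 84.2 ± 6.72 TPM lay just under the 90.7 ± 2.64 TPM of S100a13, and S100a13 was higher in 3 of 3 libraries, by 0.11 ± 0.07 on the log2(TPM + 0.1) scale.

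S100a6, which encodes calcyclin and is a common mark of effector and memory T cells, was near the counting limit (ENSMUSG00000001025.8, chromosome 3, 90612882 to 90624181). It had 5, 29 and 7 counts in replicates 2, 3 and 4, or 0.278, 1.27 and 0.642 TPM. Replicate 3 alone passed 1 TPM. The exact 95% Poisson interval was 0.0902 to 0.648 TPM in replicate 2 and 0.853 to 1.83 TPM in replicate 3, so these intervals, which cover counting error only, did not overlap, while that of replicate 4, 0.258 to 1.32 TPM, overlapped both. Cacybp, the gene of the calcyclin-binding protein, was abundant at 81.6 ± 9.79 TPM.

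The level of S100a4, which encodes a regulator of nonmuscle myosin IIA, could not be measured well in these tables (ENSMUSG00000001020.8, chromosome 3, 90603771 to 90606045). Only 2, 3 and 0 counts were assigned to it in replicates 2, 3 and 4, which gave 0.260, 0.309 and 0 TPM, and 3 counts in replicate 4 would amount to 0.644 TPM. However, 302 of its 584 exon bases, or 51.7%, are also exon bases of Gm42674, a gene on the same strand. The counting command set no option to assign a pair to more than 1 gene, so pairs that matched both genes equally would go to neither, and Gm42674 itself had 0 counts. The S100a4 count is therefore a lower bound. None of the other 9 genes shared exon bases with another gene on its strand. Myh9, the gene of the myosin heavy chain that S100A4 binds, stood at 1081 ± 39.96 TPM.

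The S100 genes of chromosome 3 differed widely along the chromosome. The tables hold 14 of them, 12 in a block of 185 kb and S100a11 and S100a10 in a second block of 44.2 kb after a gap of 2825 kb. In the first block only S100a13 and its divergent neighbour S100a1 were detected, and S100a1 reached just 1.54 ± 0.575 TPM, although the 2 genes lie head to head on opposite strands. From S100a14 to S100a9 no gene was detected, and S100a16, S100a2, S100a5 and S100a7a had 0 counts. S100a8 and S100a9, which encode calprotectin of neutrophils and monocytes, were at 0.304 ± 0.220 and 0.901 ± 0.310 TPM.

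**Figure D2:**
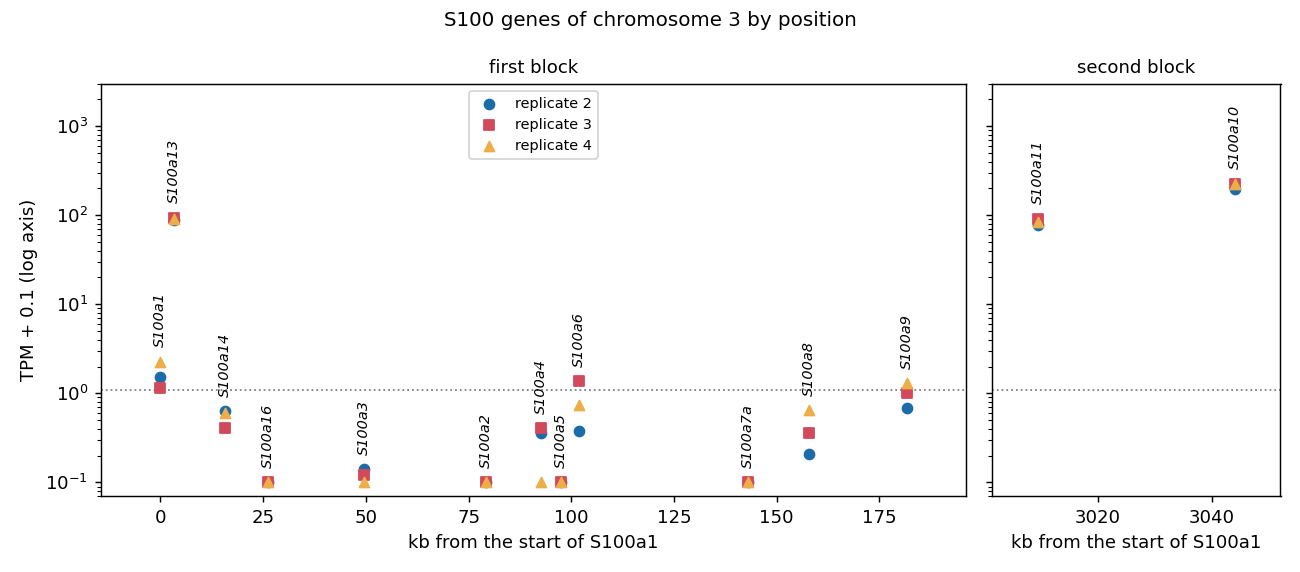
Points are libraries, the vertical axis is TPM + 0.1 on a log scale, and the horizontal axis is the distance in kb from the start of S100a1, cut at the 2825 kb gap. S100a13 at 90.7 TPM, S100a11 at 84.2 TPM and S100a10 at 215 TPM stand above all others, and the genes from S100a14 to S100a9 have means below 1 TPM.

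Of the S100 list as a whole, 5 of 17 genes were detected. Besides the 3 abundant members and S100a1, the fifth was S100pbp, which encodes an S100-binding protein and not an S100 protein, at 22.2 ± 1.70 TPM. Ager, the gene of the receptor RAGE that binds extracellular S100 proteins, was at 44.4 ± 0.814 TPM.

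Anxa2 was the only detected member of the annexin pair (ENSMUSG00000032231.14, chromosome 9, 69453620 to 69491795). Annexin A2 binds membranes and actin and, with S100A10, forms a heterotetramer at the plasma membrane. Its gene measured 3.09, 3.41 and 4.07 TPM in replicates 2, 3 and 4, and only 8.15% of detected protein-coding genes had a lower mean. Anxa1, which encodes the glucocorticoid-induced annexin that acts on formyl peptide receptors (ENSMUSG00000024659.14, chromosome 19, 20373428 to 20390944), had 7, 18 and 5 counts. These were 0.204, 0.415 and 0.240 TPM, below the detection threshold in every library, and the receptor genes Fpr1 and Fpr2 had 0 counts.

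Other annexins were far more abundant than these members. Of 12 annexin genes 5 were detected, and Anxa6 led at 642 ± 8.79 TPM, followed by Anxa5, whose product binds phosphatidylserine, at 150 ± 14.2 TPM. Anxa11 was at 71.3 ± 1.48 TPM and Anxa7 at 66.7 ± 3.05 TPM. Anxa8, Anxa10 and Anxa13 had 0 counts.

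In every library the S100 transcript exceeded that of its annexin partner. The excess of S100a10 over Anxa2 was 5.90 ± 0.14 in log2(TPM + 0.1), SD over 3 libraries. Pooled over libraries and corrected for length, 62.5 S100a10 counts were found for each Anxa2 count, and the exact binomial 95% interval reached from 57.0 to 68.6. For S100a11 over Anxa1 the excess was 7.80 ± 0.29, with a pooled ratio of 278 and an interval of 194 to 414. These intervals cover counting error only, not the spread between libraries or the choice of gene length. Since Anxa1 is near the pseudocount, the S100a11 difference was 6.05 with a pseudocount of 1, and it was 7.20 with principal transcript lengths. With those lengths the S100a10 difference was 5.37. A two-sided permutation test that flips signs, exact for 3 libraries, gave p = 0.25 for each, and 0.25 after adjustment over 4 contrasts. That is the lowest value the design allows, so no contrast could pass 0.05. Ahnak, which encodes a giant scaffold that binds the complex of annexin A2 and S100A10, was at 13.1 ± 1.21 TPM, and Plgrkt, a plasminogen receptor gene, at 102 ± 0.258 TPM.

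In the galectin pair the contrast was as wide. Lgals1, which encodes a secreted galectin that binds surface glycans of T cells (ENSMUSG00000068220.5, chromosome 15, 78926725 to 78930465), measured 122, 130 and 142 TPM in replicates 2, 3 and 4. Lgals3, which encodes the chimeric galectin with a collagen-like tail and is abundant in macrophages (ENSMUSG00000050335.16, chromosome 14, 47367751 to 47386160), had 7, 12 and 6 counts, or 0.286, 0.388 and 0.405 TPM. Lgals1 was above Lgals3 in 3 of 3 libraries, by 8.17 ± 0.12 in log2(TPM + 0.1). The difference was 6.60 with a pseudocount of 1 and 7.75 with principal transcript lengths. The pooled ratio was 365, with an exact 95% interval from 247 to 564 for counting error only. The exact permutation p was 0.25, adjusted 0.25.

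Of 10 galectin list genes that were matched, 6 were detected, and Lgals6 was not matched. Lgals9, a tandem-repeat galectin that binds the receptor TIM-3, led at 318 ± 5.45 TPM, while the receptor gene Havcr2 was at 0.0781 ± 0.0921 TPM. Lgals3bp, which encodes a secreted galectin-binding glycoprotein, was at 160 ± 16.1 TPM, Lgals8 at 55.7 ± 1.74 TPM and Lgals4 at 38.0 ± 3.30 TPM. The Lgals4 count is uncertain if the genome holds close copies of it, which was not examined. Lgals7 was at 1.75 ± 0.348 TPM. Among carriers of galectin ligands on T cells, Spn, which encodes CD43, was at 539 ± 18.4 TPM and Ptprc, which encodes CD45, at 471 ± 11.2 TPM. Mgat5, whose enzyme branches N-glycans and so makes galectin ligands, was at 19.2 ± 0.602 TPM.

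Crip1 was the second gene of the 10 (ENSMUSG00000006360.11, chromosome 12, 113146316 to 113153879). It measured 152, 182 and 179 TPM in replicates 2, 3 and 4, with replicate 2 again the lowest. Of the 6 CRIP and CSRP genes 3 were detected. Csrp1, which encodes a LIM protein of the actin cytoskeleton, was at 141 ± 6.79 TPM, whereas Crip2, the neighbour of Crip1 on chromosome 12, was at 1.84 ± 0.388 TPM.

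**Figure D3:**
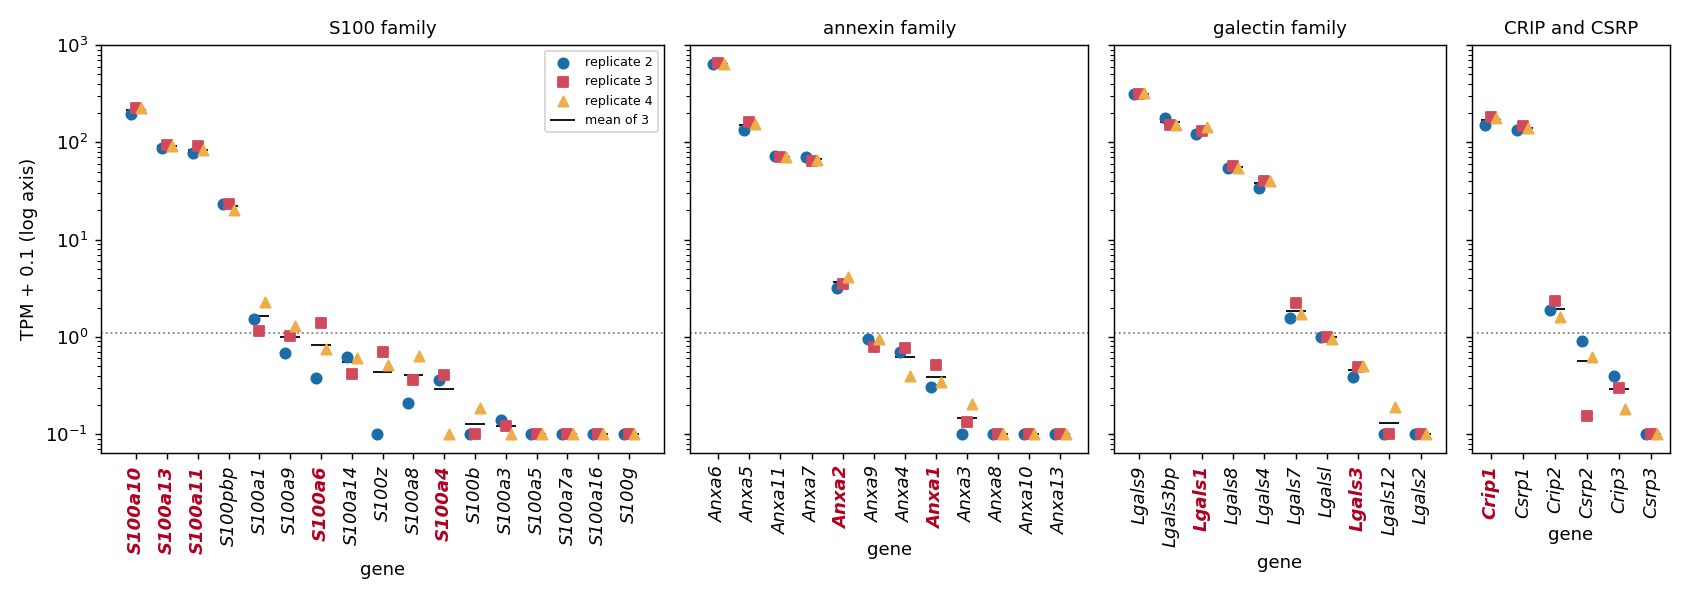
Each column is a gene of the S100, annexin, galectin or CRIP and CSRP list, points are libraries, bars are means, and the vertical axis is TPM + 0.1 on a log scale with a dotted line at 1 TPM. The 10 genes are in bold red, and the annexins Anxa6 at 642 TPM and Anxa5 at 150 TPM stand above Anxa2 at 3.52 TPM and Anxa1 at 0.286 TPM.

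In order of mean level the genes were S100a10, Crip1, Lgals1, S100a13, S100a11, Anxa2, S100a6, Lgals3, Anxa1 and S100a4. Each of the first 6 stood above the next one in 3 of 3 libraries by more than the SD of the difference. On the log2(TPM + 0.1) scale these steps ran from 0.11 ± 0.07 between S100a13 and S100a11 to 4.54 ± 0.18 between S100a11 and Anxa2. Further down, neighbours did not differ beyond their spread, with S100a6 over Lgals3 by 0.67 ± 0.77, Lgals3 over Anxa1 by 0.28 ± 0.33 and Anxa1 over S100a4 by 0.62 ± 1.04. S100a4 minus S100a6 came to -1.57 ± 1.42, below 0 in 3 of 3 libraries, where S100a4 is again a lower bound. The pooled ratio was 0.285, with an exact 95% interval of 0.0880 to 0.722 for counting error only. The exact permutation p of this difference was 0.25, adjusted 0.25. This difference moved with nearly every choice, to -0.91 without replicate 4, where S100a4 had 0 counts, to -2.32 without replicate 2, to -2.04 with principal transcript lengths and to -0.51 with a pseudocount of 1. The same values set the order, so the order itself was not tested. The length used for each gene changed the top of the order. With the principal transcript in place of all exons Crip1 stood at 524 TPM, above S100a10 at 264 TPM, and Anxa2 at 6.31 TPM.

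Variation among the 3 libraries was tested with edgeR by the goodness of fit of a model with no group term, which asks whether a gene differs among libraries more than genes of its abundance. Of the 10 genes 8 had a mean count of 10 or more and were tested, and Lgals3 and S100a4 were not. None of the 8 was called at an adjusted p of 0.05, beside 72 of 13498 genes or 0.533%, and 1 of the 8, S100a6, had an unadjusted p under 0.05. The S100a6 adjusted p was 1.00 by edgeR's goodness of fit, unadjusted 0.0431, and its lowest adjusted p over the alternatives was 0.0685. None of the other genes of the S100, annexin, galectin, CRIP and partner lists was called either, and the smallest unadjusted p among them was 0.00124 for Csrp2 (adjusted p = 0.161).

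Replicate 3, the library with the highest S100a6 value, was also the highest for 14 of 30 memory and effector genes and lowest for 8 of them. It was highest for 2 of 14 naive, 1 of 13 T cell identity and 6 of 8 B cell genes. The share of all genes highest in replicate 3 was not computed, so such counts for any list are description only. Among genes picked after their values were seen, Ccl5, a chemokine gene of effector and memory T cells, was at 3.32, 9.20 and 3.27 TPM in replicates 2, 3 and 4 (edgeR goodness of fit, adjusted p = 0.162), and Nkg7, a cytotoxic granule gene, at 4.49, 8.41 and 3.84 TPM (adjusted p = 1.00), whereas Cd44, the classical surface marker of memory cells, was lowest in replicate 3 at 29.1, 20.4 and 23.8 TPM. Of 10 macrophage and monocyte markers 3 were detected, and their summed level was 19.1, 22.2 and 21.5 TPM. Of the 9 with counts 5 were highest in replicate 3 and 4 in replicate 4, and Csf1r was at 0.0933, 0.480 and 0.334 TPM (adjusted p = 0.812). Cd14 had 0 counts and C1qa had 3. Their part in the S100a6 values was not tested.

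A smaller difference ran through nearly all of the genes. Replicate 2 was the lowest library for 9 of 10 genes, for all 8 tested and for all 6 detected, beside 24.7% of all tested genes. Replicate 4, with 0 counts, was lowest for S100a4. The low place of replicate 2 was not particular to the 10 genes. Among list genes with counts, replicate 2 was lowest or tied at 0 for 8 of 9 macrophage and monocyte and 4 of 5 neutrophil markers. The ties were C1qa, at 0 in replicates 2 and 4, and Ngp and Camp, at 0 in replicates 2 and 3. The neutrophil markers with counts were near the counting limit, from 3 counts in all for Camp to 30 for Csf3r, and include S100a8 and S100a9. C1qa and C1qb had 3 and 10 counts in all. Replicate 2 was lowest for 11 of 30 memory and effector genes and 2 of 14 naive genes, and highest for 11 of the 14 naive genes. The share of all genes highest in replicate 2 was not computed, so that last count is description only. The median deviation of the 8 tested genes from their own mean over libraries, in scaled log2 CPM, was -0.17 in replicate 2, 0.08 in replicate 3 and 0.07 in replicate 4, against 0.00, 0.00 and 0.00 over all genes tested. For the abundant genes the gap was narrow, with the highest library 1.16 times the lowest for S100a10, 1.20 times for Crip1 and 1.06 times for S100a13. Of the 8 tested genes 6 have a principal transcript under 1000 bases, and among the 1758 tested genes of that length replicate 2 was lowest for 32.8%. Replicate 2 was also the library with the female pattern. Neither the part of sex or animal nor that of transcript length was tested.

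**Figure D4:**
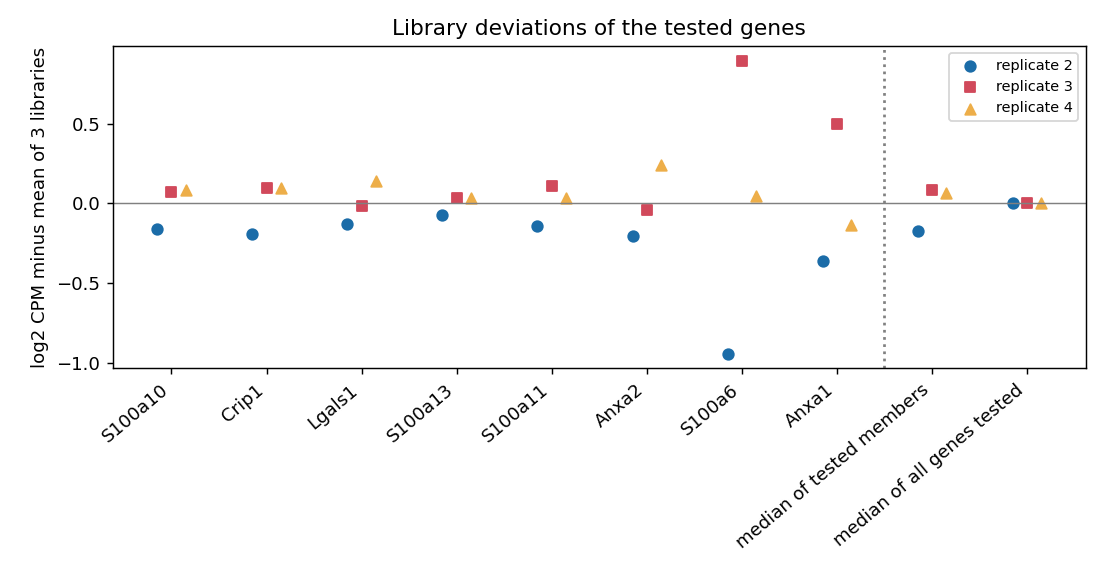
Points give, for each tested gene and library, scaled log2 CPM minus the mean of the 3 libraries, and the last columns give the medians of the 8 tested genes and of all genes tested. The blue points of replicate 2 are the lowest for each of the 8 genes, with a median of -0.17.

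The genes whose library deviations came nearest to that median profile, by Euclidean distance over 3 libraries among 8527 genes of 10 TPM or more, were Prkci, Aimp2, Smim4, Bcl6 and Ost4, with distances from 0.0168 to 0.0194. Bcl6, the regulator of follicular helper cells, measured 16.7, 19.5 and 19.0 TPM in replicates 2, 3 and 4. With 3 points this likeness is a description only.

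Other genes of naive and memory T cells gave the setting of these levels. All 14 naive genes were detected, with a median of 549 TPM and Tcf7 at 2947 ± 117 TPM. Il7r, the interleukin 7 receptor gene, was the only one of them called as varying (875, 607 and 556 TPM, edgeR adjusted p = 0.0449), and it was not called without replicate 2, 3 or 4 (adjusted p = 1.00, 0.178 and 0.393) or with a common dispersion (adjusted p = 0.0781). Of 30 memory and effector genes 22 were detected, with a median of 9.32 TPM, 0 called and a wide range. The leaders were Sh3bgrl3 at 1262 ± 136 TPM, Tagln2 at 488 ± 30.1 TPM, Emp3 at 455 ± 16.8 TPM and Lsp1 at 321 ± 10.3 TPM. After them came Vim at 238 ± 7.35 TPM, Itga4 at 118 ± 11.8 TPM and Gpr183 at 109 ± 9.19 TPM. Id2 at 69.1 ± 5.45 TPM and Il2rb at 46.3 ± 1.81 TPM were next. Lower in the list, the chemokine receptor genes Cxcr3, Ccr6 and Cxcr6 were at 1.98 ± 0.495, 1.31 ± 0.394 and 1.16 ± 0.294 TPM, and Ccr2 at 0.177 ± 0.0888 TPM.

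Markers of other cells, some of which carry S100 or galectin transcripts, were mostly below detection. None of 9 neutrophil, 7 dendritic, 6 stromal, 5 endothelial and 6 erythroid markers was detected. The summed neutrophil markers reached 0.986, 1.23 and 3.20 TPM in replicates 2, 3 and 4. Of 11 regulatory T cell genes 9 were detected, with Foxp3 at 6.52 ± 1.23 TPM, and of 8 B cell genes 7, with Cd79a at 14.8 ± 2.31 TPM. Detected were also 1 of 7 NK cell genes, 1 of 5 γδ and NKT genes, 1 of 5 epithelial genes and 1 of 2 CD8 genes. The part of these cells in the low S100a6, S100a4, Anxa1 and Lgals3 levels was not tested.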

How the data were processed

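The authors deposited 1 table of raw counts of read pairs per gene for each of 3 libraries. Per the file headers, pairs were counted with featureCounts 1.4.6-p4 over exons of GENCODE M13, with both ends aligned and reverse-strand counting. The aligner version is not given in the sources used here. No option for pairs of several genes or several places was set, so overlapping genes and near-identical copies are undercounted. Per the file headers, the other column used, gene length, is the summed exon length. Symbols were matched for 50376 of 50600 genes, and biotypes and principal transcripts came from GENCODE M21.

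TPM were computed from counts and lengths. Variation was tested across all genes with edgeR 4.0.16 in R 4.3.3 (TMM scaling, estimateDisp trend, goodness of fit, mean count of 10 or more, Benjamini-Hochberg at 0.05) after the code was tested on simulated data. Contrasts used log2(TPM + 0.1) and exact sign-flip tests. Log2 CPM had a prior count of 2, and the floor was 3 counts. The members and lists were chosen with earlier results of these data known. Named were the 10 genes, the leading and detected genes of each fixed list, genes at 0 counts, genes called, and the 5 nearest profiles. Picked once values were known were Cd4, Cd44, Foxp3, Csf1r, C1qa, Nkg7, Ccl5, Havcr2, Cacybp, Mgat5, Ager, Ahnak, Ccr2, Ccr6, Cxcr3, Cxcr6, Vim, Itga4, Gpr183, Id2, Il2rb, S100a14 and Gm42674. The alternatives changed the detection threshold, the pseudocount, the scaling, the count minimum or the dispersion, or left out 1 replicate. The principal transcript length was added after seeing the data.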

Additional observations from a re-analysis of the deposited data

How the results depend on the processing

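The count of detected members stayed at 6 or, at 5 TPM, 5 under every alternative run, and no member was called in any setting of the goodness of fit test. Over all genes the count of 72 moved to 312 under a common dispersion and to between 35 and 46 with 1 replicate left out, namely 35 without replicate 2, 39 without replicate 3 and 46 without replicate 4. The order of the 10 genes changed for 4 of them in CPM without length correction, where Crip1 passed S100a10 and Anxa1 passed Lgals3, and for 2 of them with principal transcript lengths, and for none with a replicate left out. All 4 partner contrasts kept their sign in each alternative run, but their size did not: with a pseudocount of 1 they were 5.58 for S100a10 and Anxa2, 6.05 for S100a11 and Anxa1, 6.60 for Lgals1 and Lgals3 and -0.51 for S100a4 and S100a6, and with 1 replicate left out the last ran from -2.32 to -0.91. Counts of 41 or fewer limit S100a6, Anxa1, Lgals3 and S100a4, and neighbours among them in the order did not differ beyond their spread. No paired analysis was possible because there is only 1 group.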
